A study of Homo sapiens with 6 samples.

Results

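The genes for WNT ligands, their receptors and the proteins that tune the pathway were followed in HK-2 cells, an immortalized line of human renal proximal tubule epithelium. A gene was included when it was protein-coding in the count table and its symbol was that of a WNT ligand, a Frizzled (FZD) receptor, LRP5, LRP6, ROR1 or ROR2, an R-spondin or its LGR receptor, RNF43, ZNRF3, a secreted antagonist (DKK, SFRP, WIF1, NOTUM), AXIN1, AXIN2, NKD1, NKD2, CTNNB1, LEF1 or a TCF7 gene. This gave 53 of 31831 genes. ROR2, RSPO1, RSPO4, WNT8A, WNT9B, FZD10, DKK2 and DKK4 were not among the genes in the table.

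Cells of both groups spent 72 h in medium with 30 mM glucose. The 3 HG-NC libraries came from cells that carried the control construct, called a plasmid in the labels and a lentivirus in the study's methods. The 3 HG-OE libraries came from cells with the hnRNP-F overexpression lentivirus. Every library therefore carried high glucose and a vector, and what glucose itself does to these genes was not part of the comparison. The question addressed was which transcripts change when hnRNP-F, an RNA-binding protein and splicing factor, is raised under high glucose.

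Poly(A) RNA was sequenced to 25507595 to 29444841 counted read pairs per library, and all 3 HG-OE totals were above the HG-NC totals. HNRNPF itself rose from 311 ± 7.23 to 435 ± 14.9 CPM (mean ± SD, n = 3), a fold of 1.40. CPM are counts scaled to a common library size by the TMM method. Epithelial keratins and the renal factor PAX8 were abundant in every library, while LRP2, the megalin receptor of the mature proximal tubule, had 0 counts in 5 libraries and 17 in HG-OE replicate 3, and the water channel AQP1 had at most 7. HG-OE replicate 3 stood apart. It held 4359 counts of ALB, the liver's albumin, against 0 to 78 in the other libraries, and 384 of CDH1, the epithelial cadherin, against at most 10. The summed level of 14 hepatocyte markers other than SERPINA1 was 437 CPM there, 13.7 CPM in HG-NC replicate 3 and 3.69 to 6.65 CPM in the remaining 4 libraries. SERPINA1, also a liver marker, was at 258 to 275 CPM in HG-NC and 395 to 458 CPM in HG-OE. Summed fibroblast markers were at 35.1 to 45.5 CPM over the 6 libraries, leukocyte markers at 6.34 to 18.0 CPM with the highest value in HG-OE replicate 3, and endothelial markers at 0.393 to 0.702 CPM in HG-NC and 1.13 to 1.38 CPM in HG-OE. Other sums also separated the groups, with epithelial markers at 943 to 956 and 1247 to 1904 CPM. Proximal tubule markers were at 758 to 827 and 578 to 639 CPM, and podocyte markers at 79.1 to 81.3 and 109 to 114 CPM. These sums followed their most abundant genes, KRT8, PAX8 and SYNPO, and single markers went the other way. Of 6 epithelial markers tested, 4 were higher in HG-OE and 2 lower. The lower ones were EPCAM (101 to 111 and 67.0 to 79.2 CPM) and KRT19 (222 to 238 and 138 to 191 CPM). GATM of the proximal tubule was higher in HG-OE (9.57 to 10.4 and 11.6 to 13.4 CPM). NPHS1 of podocytes had lower values in HG-OE (1.38 to 1.54 and 0.512 to 1.10 CPM), but no podocyte marker was called lower. The part of these differences in the results was not tested. Results that rest on HG-OE replicate 3 are given with and without it below, and the part of liver-type RNA in them was not tested.

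WNT proteins are secreted lipid-bound ligands that need the acyltransferase PORCN and the carrier WLS to leave the cell. In the canonical branch they join a Frizzled with LRP5 or LRP6, the complex of AXIN, APC and GSK3 stops destroying beta-catenin, and beta-catenin enters the nucleus and works with TCF/LEF factors. Other branches signal through ROR and PTK7 receptors to planar cell polarity and calcium. In the kidney the pathway drives nephron formation, is quiet in the healthy adult tubule, and returns in injury and fibrosis.

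Of the 53 genes, 38 had enough counts to be tested. Among these, 23 changed between the groups at an adjusted p under 0.05, with 11 higher and 12 lower in HG-OE. This is 60.5% of the tested genes, beside 51.8% of all 17142 genes tested in the table (25.9% higher and 25.9% lower). Tests were edgeR's quasi-likelihood test with p-values adjusted over all genes by the Benjamini-Hochberg method. A change of at least 2-fold was called for 11 of the 38, or 28.9%, beside 5.82% of all genes. Of these, 4 rose (WNT5A, WNT10A, FZD8 and SFRP2, beside 3.69% of all genes) and 7 fell (WNT4, RNF43, WNT7B, NOTUM, WNT9A, WNT10B and TCF7L1, beside 2.13%). WNT10A passed the low-count filter only through HG-OE, where it was high, so the filter favoured its place among the rises. The median log2 fold change was -0.083 over the 38 genes and 0.011 over all genes. The libraries of the 2 groups did not overlap for 28 of the 38 genes, 73.7%, beside 59.0% of all genes. Without HG-OE replicate 3, 25 genes changed, among them all 23, and 8 of the 11 kept a 2-fold call. FZD8, WNT10B and TCF7L1 then fell short of 2-fold. Both HG-OE replicate 3 and HG-NC replicate 3 were also left out, a choice made after the data were seen. Then 24 genes changed, 9 of them by at least 2-fold, and FZD8 was no longer called (adjusted p = 0.074). The shares of all genes called in these leave-out fits are not given here. Their counts therefore cannot be set beside 51.8% and 5.82%.

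**Figure D1:**
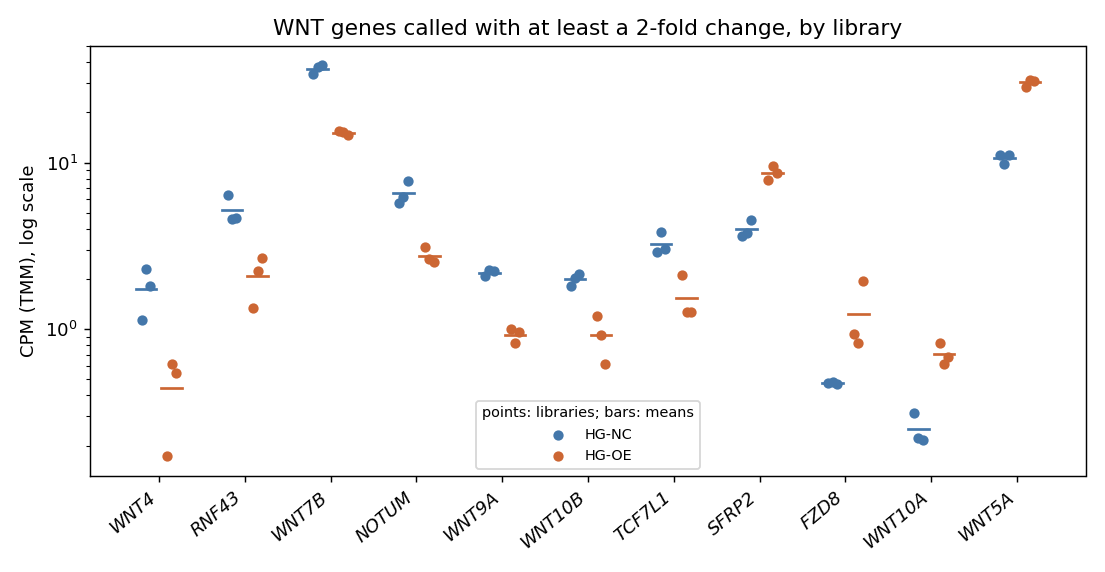
The 11 WNT pathway genes called with at least a 2-fold change, with CPM on a log axis. Points are the 3 HG-NC and 3 HG-OE libraries and bars their means. The groups are separate for each gene, and WNT7B and WNT5A, the most abundant of them by CPM, move in opposite directions.

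The remaining 15 genes never exceeded 11 counts in a library and were not tested. They were WNT1, WNT2, WNT3A, WNT6, WNT7A, WNT8B, WNT11, WNT16, LGR5, LGR6, RSPO2, SFRP1, SFRP5, WIF1 and NKD1. Where none was counted, up to 3 counts per library remain possible, so absence cannot be read from these values. WNT7A, with 11 counts, and LGR5, with 10, had all of their counts in HG-OE replicate 3. LGR6 had 3, 3 and 0 counts in HG-NC and 8 in each HG-OE library. NKD1, a feedback inhibitor of the pathway, had at most 10 counts.

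Levels of different genes were compared by FPKM, the authors' value that corrects counts for gene length and depth. In HG-NC the most abundant was DKK3, a divergent member of the Dickkopf family, at 19.6 ± 0.669 FPKM. Beta-catenin (CTNNB1, 14.4 ± 0.381) and FZD6 (14.1 ± 0.947) came next and did not differ beyond their spread. FZD7 (10.1 ± 0.318), WNT5B (9.19 ± 0.371), DKK1 (7.25 ± 0.270), WNT7B (6.45 ± 0.435) and FZD2 (5.62 ± 0.189) followed in separate steps. ROR1, AXIN1 and FZD5 shared a level of 4.15 to 4.22 FPKM. The cells thus held RNA for ligands, receptors and antagonists together, and among the TCF/LEF genes TCF7L2 was the most abundant, at 3.27 ± 0.276 FPKM.

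The ligands changed in both directions. Of 9 tested, 3 rose and 4 fell, and 6 of the 7 changes reached 2-fold. These are 77.8% called and 66.7% called 2-fold, beside 51.8% and 5.82% of all genes. Both ligand shares include WNT10A, which passed the low-count filter only through HG-OE, where it was high. WNT5A, the classic ligand of the non-canonical branch, lies on chromosome 3 (GRCh38, 55465715 to 55490539, minus strand). It measured 11.1, 9.75 and 11.1 CPM in HG-NC and 28.6, 31.3 and 30.9 CPM in HG-OE. All HG-OE libraries were well above all HG-NC libraries. The log2 fold change was 1.51 (SE 0.0768, adjusted p = 5.17e-09), a 2.84-fold rise, and the exact two-sided permutation test gave p = 0.1, which is as low as 3 against 3 libraries can reach. The antisense gene WNT5A-AS1 held 8 counts over all 6 libraries.

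WNT7B, a canonical ligand of branching kidney epithelium (chromosome 22, 45920366 to 45977162, minus strand), measured 33.9, 37.7 and 38.2 CPM in HG-NC and 15.4, 15.3 and 14.6 CPM in HG-OE. The groups were far apart and each was tight. The fall was 2.42-fold (log2 fold change -1.28, SE 0.0664, adjusted p = 6.20e-09). With 429 to 1069 counts per library, WNT7B was the best counted of the ligands that changed, and its value without HG-OE replicate 3 was -1.26.

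WNT4, which drives the mesenchyme-to-epithelium step of nephron formation (chromosome 1, 22117313 to 22143969, minus strand), had the greatest fall among the 38 genes. Its levels were 1.14, 2.29 and 1.82 CPM in HG-NC and 0.172, 0.618 and 0.546 CPM in HG-OE. The groups did not overlap, but the counts were low, 5 to 62 per library. Its log2 fold change was -1.97 (SE 0.393, 95% interval -2.81 to -1.12, adjusted p = 8.37e-04).

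WNT9A measured 2.08, 2.25 and 2.22 CPM in HG-NC and 0.999, 0.824 and 0.956 CPM in HG-OE. WNT10B measured 1.81, 2.03 and 2.15 CPM in HG-NC and 1.21, 0.927 and 0.615 CPM in HG-OE. Both are canonical ligands, both fell with no overlap of the groups, and the lowest WNT10B value was that of HG-OE replicate 3. The log2 fold changes were -1.23 (SE 0.216, adjusted p = 2.99e-04) for WNT9A and -1.12 (SE 0.262, adjusted p = 0.00262) for WNT10B, the latter -0.90 without that library.

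WNT10A, a ligand best known from teeth, hair and other skin appendages, rose from a very low level. It measured 0.315, 0.222 and 0.215 CPM in HG-NC and 0.827, 0.618 and 0.683 CPM in HG-OE. The groups were separate, on 8, 6 and 6 counts in HG-NC and 24, 18 and 20 in HG-OE. Only the HG-OE libraries carried it past the low-count filter, so its rise is weak evidence. The rise was 1.49 on the log2 scale (SE 0.372, adjusted p = 0.0041), and DESeq2's Wald test gave an adjusted p of 0.051.

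WNT2B, a canonical ligand, rose by a log2 fold change of 0.69 (SE 0.122, adjusted p = 3.44e-04), from 7.0 ± 1.17 to 11.3 ± 0.722 CPM. WNT5B, the most abundant ligand and a close relative of WNT5A, was at 41.8, 44 and 44.9 CPM in HG-NC and 39.2, 41.6 and 39.7 CPM in HG-OE. Its groups differed by little and just failed to overlap, at a log2 fold change of -0.12 (SE 0.0525, adjusted p = 0.077). WNT3 gave 0.13 (95% interval -0.14 to 0.40, adjusted p = 0.41).

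The make-up of the ligand RNA differed between the groups. WNT5B held 45.2% ± 0.746 of the summed ligand FPKM in HG-NC and 47.2% ± 0.235 in HG-OE. For WNT7B it was 31.7% ± 0.537 in HG-NC and 14.8% ± 0.492 in HG-OE. WNT5A moved the other way, from 6.58% ± 0.685 to 21.1% ± 0.766. The ratio of WNT5A to WNT7B was 0.232, 0.184 and 0.207 in the HG-NC libraries and 1.32, 1.45 and 1.5 in the HG-OE libraries, so WNT5A was the lower of the pair in every HG-NC library and the higher in every HG-OE library. All 17 ligands summed to 20.3 ± 1.05 FPKM in HG-NC and 17.8 ± 0.428 FPKM in HG-OE.

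**Figure D2:**
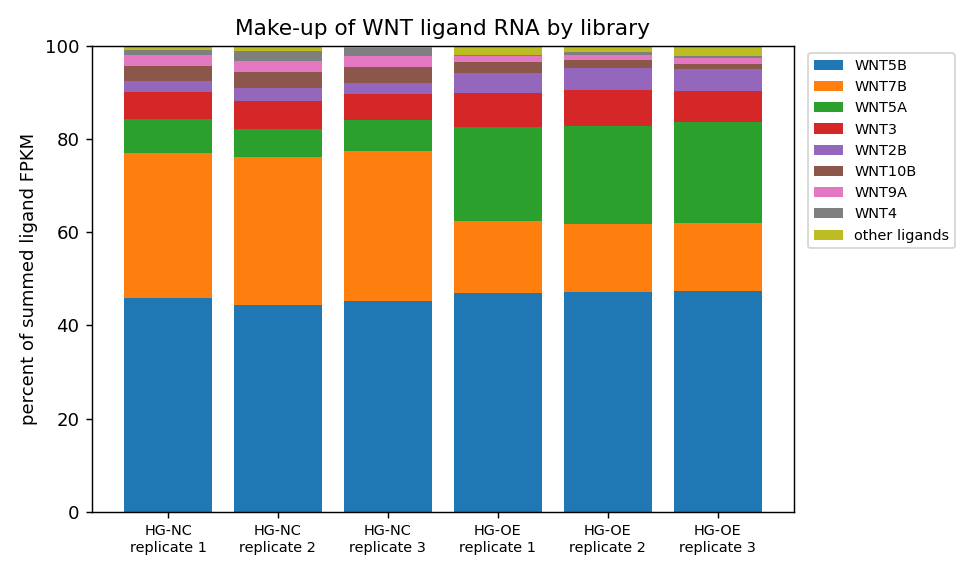
Share of each WNT ligand in the summed ligand FPKM of a library, in percent, for the 3 HG-NC and 3 HG-OE libraries. WNT5B holds 44.5 to 47.4% everywhere, WNT7B gives way from 31.1 to 32.2% to 14.5 to 15.4%, and WNT5A grows from 5.85 to 7.21% to 20.3 to 21.8%.

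Frizzleds, the seven-pass receptors that bind WNT proteins, changed less. Of 9 tested, 3 rose (FZD1, FZD2 and FZD8) and 2 fell (FZD5 and FZD6), and FZD8 alone passed 2-fold with all 6 libraries. The share called, 55.6%, was close to the 51.8% of all genes, and the share called 2-fold was 11.1% beside 5.82%. FZD8 measured 0.472, 0.480 and 0.465 CPM in HG-NC and 0.930, 0.824 and 1.95 CPM in HG-OE. The groups were separate, and HG-OE replicate 3 was far above its group. The log2 fold change was 1.38 (SE 0.368, adjusted p = 0.00644), and 0.89 (adjusted p = 0.046) without that library.

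FZD6, the most abundant Frizzled and a receptor of planar cell polarity, was at 67.5, 59.3 and 65.4 CPM in HG-NC and 50.8, 52.8 and 50.5 CPM in HG-OE. Each HG-OE library lay below each HG-NC library, with a log2 fold change of -0.32 (SE 0.0545, adjusted p = 2.39e-04). FZD7, second in level, was at 50.3, 53.4 and 50.9 CPM in HG-NC and 46.5, 49.6 and 47.6 CPM in HG-OE, a small difference of -0.11 on the log2 scale (SE 0.0501, adjusted p = 0.094). FZD1 rose by 0.40 (SE 0.0717, adjusted p = 3.52e-04) and FZD2 by 0.21 (SE 0.0585, adjusted p = 0.00836) on the log2 scale. The call for FZD2 did not pass with DESeq2, whose adjusted p was 0.053.

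FZD5 depended on HG-OE replicate 3 in the other direction. Its 3 HG-NC libraries lay at 33.2, 32.3 and 32.5 CPM, HG-OE replicates 1 and 2 at 25.4 and 22.4 CPM, and HG-OE replicate 3 at 32.1 CPM, close to HG-NC. FZD5 gave a log2 fold change of -0.29 (SE 0.0986, adjusted p = 0.023) with that library and -0.45 (adjusted p = 2.30e-07) without it. The call was lost when any of the other 5 libraries was left out, with adjusted p of 0.072 to 0.11. FZD3, FZD4 and FZD9 were not called, at -0.055, 0.40 and 0.43. FZD4 reached 7.92 CPM in HG-OE replicate 3 against 3.66 to 5.65 CPM elsewhere, and its value was 0.13 without that library and 0.60 (adjusted p = 0.018) without HG-OE replicate 2. Over the 9 Frizzleds the summed level was 37.9 ± 0.400 FPKM in HG-NC and 35.5 ± 0.529 FPKM in HG-OE, with FZD6 at 37.2% and 31.5% of it.

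The co-receptors LRP5 and LRP6, which carry the canonical signal, moved in opposite directions. LRP6 was at 40.6, 42.8 and 40.0 CPM in HG-NC and 32.0, 30.6 and 31.7 CPM in HG-OE. The groups were tight and apart, and the log2 fold change was -0.39 (SE 0.0530, adjusted p = 3.57e-05). LRP5 was at 14.2, 14.0 and 14.7 CPM in HG-NC and 17.0, 19.4 and 39.3 CPM in HG-OE. All HG-OE libraries were higher, replicate 3 by far. The log2 fold change was 0.82 (SE 0.231, adjusted p = 0.00878) with all libraries and 0.35 (adjusted p = 6.10e-04) without HG-OE replicate 3, and with all libraries DESeq2 gave an adjusted p of 0.083. ROR1, a receptor of WNT5A, was at 33.0, 31.8 and 30.4 CPM in HG-NC and 25.2, 23.3 and 22.5 CPM in HG-OE. It fell by 0.42 on the log2 scale (SE 0.0632, adjusted p = 8.08e-05), while its ligand rose.

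R-spondins amplify WNT signals by binding LGR receptors and removing RNF43 and ZNRF3, the ubiquitin ligases that clear Frizzleds from the membrane. RNF43, itself a known target of the pathway (chromosome 17, 58353676 to 58417595, minus strand), was at 6.41, 4.58 and 4.65 CPM in HG-NC and 1.34, 2.23 and 2.66 CPM in HG-OE. Each HG-OE library was below each HG-NC library. RNF43 gave a log2 fold change of -1.32 (SE 0.225, adjusted p = 2.35e-04). ZNRF3, the related ligase, was not called. Its means were 15.4 ± 0.0355 and 15.5 ± 1.06 CPM, and the 95% interval of the log2 fold change was -0.16 to 0.18. LGR4, the LGR receptor with most RNA here, was at 23.7, 22 and 25.2 CPM in HG-NC and 26.5, 28.5 and 32.7 CPM in HG-OE. Its groups were close but separate, with a log2 fold change of 0.31 (SE 0.0806, adjusted p = 0.00568). RSPO3 gave 0.20 (95% interval -0.13 to 0.53, adjusted p = 0.302).

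Secreted antagonists also split. SFRP2, a Frizzled-like protein that binds WNT proteins outside the cell (chromosome 4, 153780591 to 153789083, minus strand), was at 3.62, 3.77 and 4.51 CPM in HG-NC and 7.82, 9.51 and 8.67 CPM in HG-OE. The groups were well apart, with a log2 fold change of 1.13 (SE 0.130, adjusted p = 8.04e-06). NOTUM, a carboxylesterase that strips the lipid from WNT proteins and is a feedback target in several tissues (chromosome 17, 81952507 to 81961840, minus strand), was at 5.74, 6.17 and 7.73 CPM in HG-NC and 3.10, 2.64 and 2.53 CPM in HG-OE. It fell without overlap, with a log2 fold change of -1.25 (SE 0.156, adjusted p = 1.66e-05).

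DKK3 was at 252, 268 and 265 CPM in HG-NC and 302, 307 and 292 CPM in HG-OE, a small and clean rise of 0.20 on the log2 scale (SE 0.0392, adjusted p = 8.02e-04). SFRP4 was near 1 CPM in both groups (log2 fold change -0.40, 95% interval -1.01 to 0.20, adjusted p = 0.25).

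DKK1, the LRP5 and LRP6 blocker, gave a different answer with and without 1 library. It was at 17.3, 18.3 and 18.4 CPM in HG-NC and 15.8, 13.8 and 24.5 CPM in HG-OE. HG-OE replicates 1 and 2 were below every HG-NC library and replicate 3 was above them. With all libraries the log2 fold change was 0.0042 (95% interval -0.33 to 0.34, adjusted p = 0.99). Without HG-OE replicate 3 it was -0.28 (adjusted p = 0.0053).

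DKK1 is printed here because of its promoter. Among the 37 WNT pathway genes matched in RefSeq's promoter table, its promoter alone held CTTTGA or, on the other strand, TCAAAG. These letters are a form of the TCF/LEF core. Other forms, such as CTTTGT, were not searched for, and they are unmarked where the printed bases of DKK1 hold them. The 250 bases before its start site lie at chr10:52314031-52314280 (GRCh38.p14, plus strand), with the matching letters in capitals, 5′ to 3′.
DKK1: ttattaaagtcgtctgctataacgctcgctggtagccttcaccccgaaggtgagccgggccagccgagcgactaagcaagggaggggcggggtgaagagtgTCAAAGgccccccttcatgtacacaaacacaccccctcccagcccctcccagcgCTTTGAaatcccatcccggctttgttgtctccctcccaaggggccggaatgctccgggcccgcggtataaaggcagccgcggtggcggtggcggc
The letters occur in each orientation, at 149 to 144 and at 95 to 90 bases before the start. They were found in 3937 of 35116 promoter windows of this length, 11.2%. A match is a description of the letters, not of binding.

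Inside the cell, CTNNB1 rose. It was at 192, 184 and 192 CPM in HG-NC and 252, 249 and 270 CPM in HG-OE. The groups were clearly apart, and the log2 fold change was 0.44 (SE 0.0419, adjusted p = 1.36e-06). The scaffold AXIN1 (-0.060, 95% interval -0.19 to 0.070) and its feedback-induced relative AXIN2 (-0.12, 95% interval -0.63 to 0.40) were not called, and the AXIN2 interval is wide. NKD2, a Dishevelled-binding inhibitor, was at 1.93, 2.51 and 2.75 CPM in HG-NC and 1.86, 1.37 and 1.81 CPM in HG-OE. Its log2 fold change of -0.51 (SE 0.215) had an adjusted p of 0.061, and it was called without HG-OE replicate 3 (-0.57, adjusted p = 0.034) and without HG-NC replicate 1 (-0.64, adjusted p = 0.037).

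No TCF/LEF factor rose. TCF7L1, often a repressor of WNT targets, was at 2.91, 3.84 and 3.04 CPM in HG-NC and 2.10, 1.27 and 1.26 CPM in HG-OE. The groups did not overlap and the log2 fold change was -1.08 (SE 0.230, adjusted p = 0.00138). TCF7 fell by 0.65 on the log2 scale (SE 0.127, adjusted p = 6.99e-04), from 9.08 ± 0.483 to 5.79 ± 0.947 CPM. LEF1 (-0.35, 95% interval -1.09 to 0.39) had few counts and was not called. TCF7L2 gave -0.18 (SE 0.0760, adjusted p = 0.061), and was called without HG-NC replicate 3 (-0.23, adjusted p = 0.046) or without HG-OE replicate 1 (-0.23, adjusted p = 0.039).

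**Figure D3:**
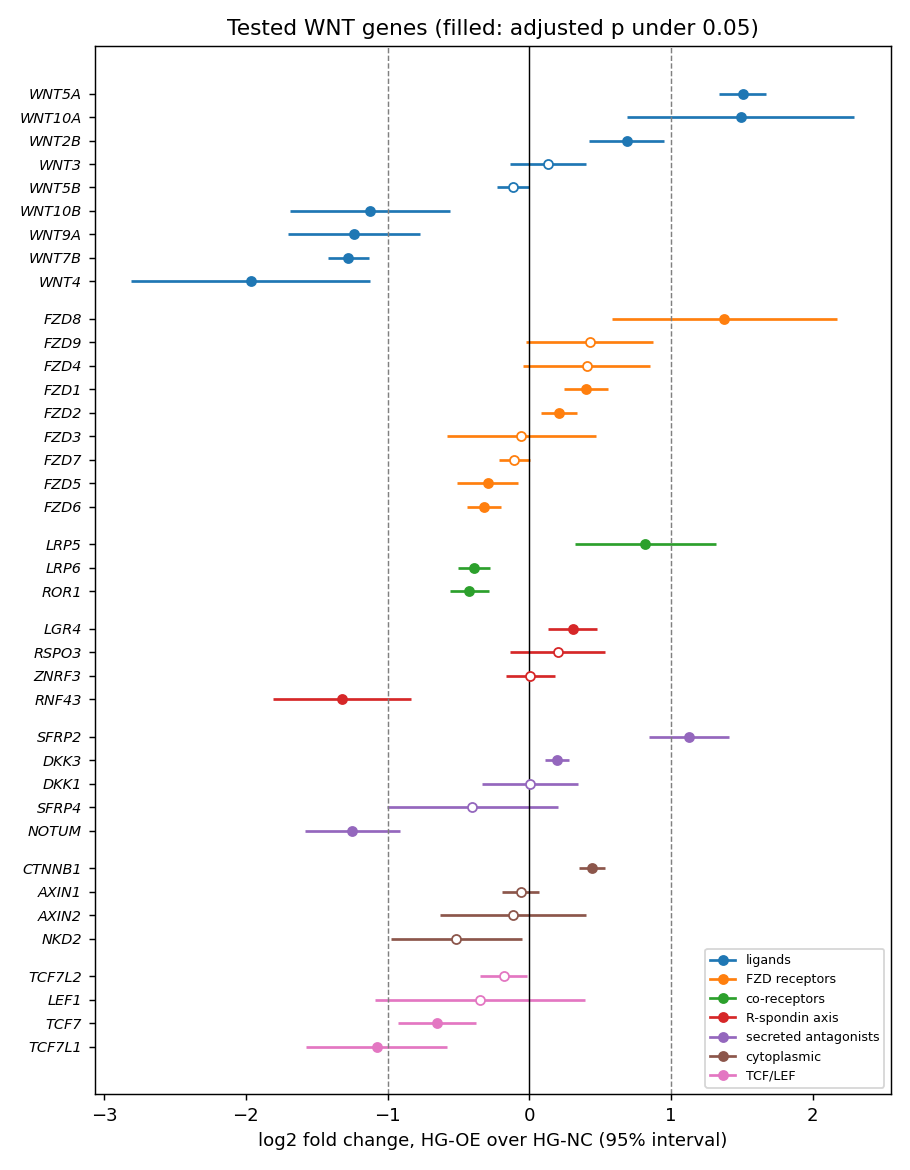
Log2 fold change of HG-OE over HG-NC for the 38 tested WNT pathway genes, grouped by role, with 95% intervals from the edgeR fit. Filled points are the 23 genes with an adjusted p under 0.05 and dashed lines mark 2-fold. Ligands spread from -1.97 to 1.51, while the point estimates of the co-receptors and cytoplasmic genes stay within 2-fold. The interval of LRP5 runs from 0.32 to 1.32 and crosses the 2-fold line.

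Across the 38 genes, the CPM of HG-OE replicate 3 was 0.576 (WNT10B) to 2.22 times (FZD8) the mean of HG-OE replicates 1 and 2. FZD8, LRP5 and DKK1 were among the genes higher in that replicate, together with the liver markers of that library. In bulk RNA, more cells of a type and more RNA per cell cannot be told apart.

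**Figure D4:**
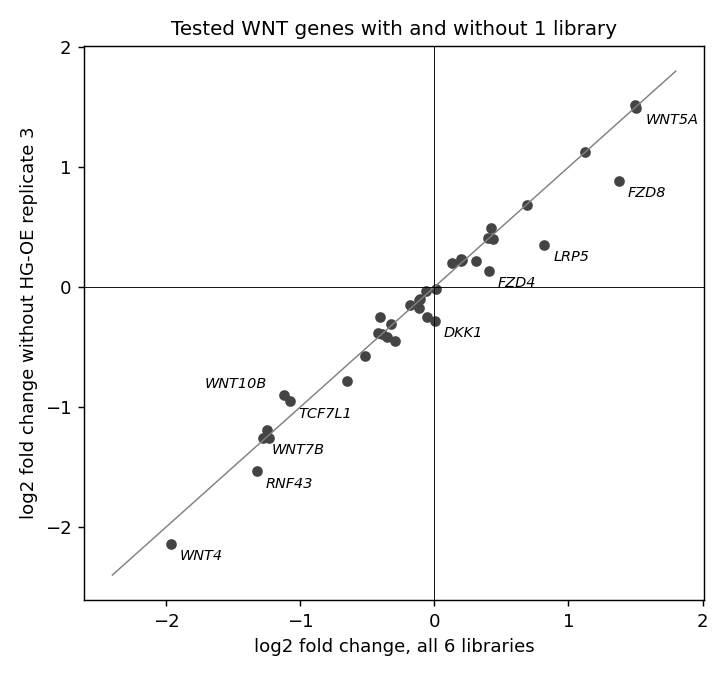
Log2 fold changes of the 38 tested WNT pathway genes with all 6 libraries (x axis) and without HG-OE replicate 3 (y axis). The line marks equal values. LRP5 drops from 0.82 to 0.35, FZD8 from 1.38 to 0.89 and DKK1 from 0.0042 to -0.28, while WNT5A stays at 1.49 and WNT7B at -1.26.

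To place each gene in its chromosomal surroundings, it was set beside its neighbours, the genes within 10 Mb with a mean of at least 100 counts, by their median log2 fold change. These medians ran from -0.42 to 0.53. CTNNB1 and WNT5A, both on chromosome 3, had the highest. The 144 neighbours of CTNNB1 had a median of 0.50, so CTNNB1 at 0.44 was 0.064 below its surroundings. The 145 neighbours of WNT5A had a median of 0.53, which left 0.98 of its 1.51. FZD5 lay 0.097 above its neighbours, whose median was -0.39. FZD7 went from -0.11 to 0.31 relative to its neighbours, ZNRF3 to -0.31, AXIN2 to 0.13 and DKK1 to -0.11, and none of these had been called. Of the called genes, FZD2 went to 0.44, FZD6 to -0.18 and TCF7L1 to -0.87. WNT7B and TCF7 fell where their neighbours had medians of 0.32 and 0.32, and SFRP2 rose where they had -0.33. Whether chromosome copy number differs between the groups was not tested.

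**Figure D5:**
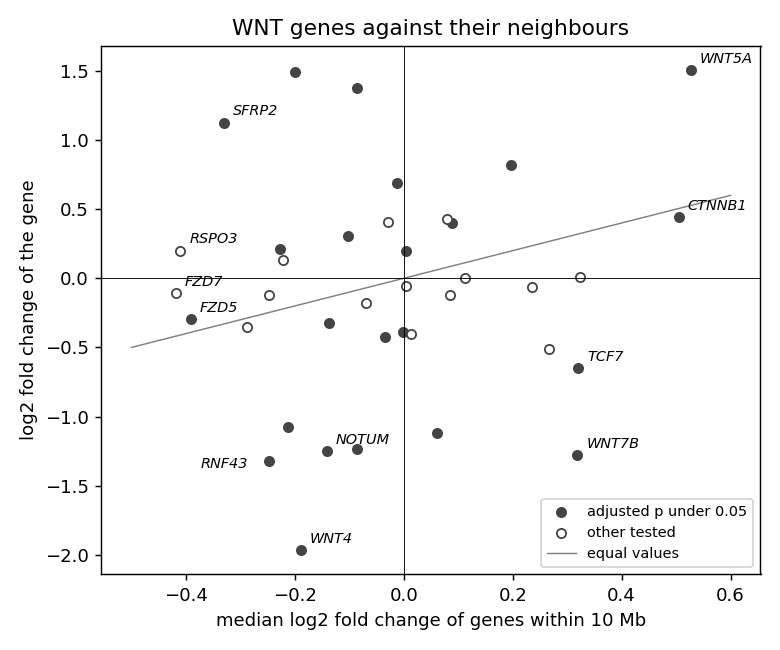
Log2 fold change of each tested WNT pathway gene (y axis) against the median of the genes within 10 Mb of it (x axis). Filled points had an adjusted p under 0.05 and the line marks equal values. CTNNB1 (0.50 and 0.44) and FZD5 (-0.39 and -0.29) lie near the line, and WNT7B, SFRP2 and WNT4 lie far from it.

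Other genes of the pathway were counted in 5 lists written from general knowledge. In the list for WNT secretion and other surface proteins, 7 of 26 tested genes rose and 8 fell, 26.9% and 30.8% beside 25.9% of all genes in each direction, with a median log2 fold change of 0.034. Without HG-NC replicate 3, 10 genes of this list changed. The share of all genes called in that fit is not given here, so this lower count cannot be laid to the list. PTK7, a pseudokinase receptor of the non-canonical branch, rose from 1.67 ± 0.440 to 8.99 ± 1.08 CPM (log2 fold change 2.43, SE 0.177, adjusted p = 1.17e-07). ADGRA2, the WNT7 co-receptor GPR124, rose by 1.13 (SE 0.106, adjusted p = 1.22e-06), in the opposite direction to WNT7B. PORCN rose by 0.72 and WLS fell by 0.24 on the log2 scale. The falls were led by TRABD2A (-0.43), RECK (-0.29) and TSPAN12 (-0.28).

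GPC3, a glypican abundant in fetal liver, was at 1.61, 1.48 and 1.04 CPM in HG-NC and 0.999, 0.687 and 40.0 CPM in HG-OE. Only HG-OE replicate 3 was high. The log2 fold change was 3.34 (SE 1.11, adjusted p = 0.022) with that library and -0.70 (adjusted p = 0.056) without it.

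Among the proteins of the destruction complex and Dishevelled, 10 of 33 rose and 10 fell, 30.3% each beside 25.9% of all genes in each direction, none by 2-fold, with a median of 0.017. Among called genes with a mean of at least 100 counts, the largest rises were FRAT2 (0.71), a GSK3-binding protein, CXXC5 (0.56) and SKP1 (0.39), and the largest falls were RNF146 (-0.58), which marks AXIN for destruction, DACT1 (-0.56) and USP34 (-0.40). Of 25 nuclear cofactors of beta-catenin, 6 rose and 11 fell, 24% and 44% beside the same 25.9%, with a median of -0.077. The corepressor TLE2 rose by 1.03 (0.96 without HG-OE replicate 3), CBY1 by 0.30 and BCL9 by 0.22, while the related corepressors TLE4 (-0.50) and TLE3 (-0.45) and the kinase NLK (-0.47) fell.

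Of 28 genes of planar cell polarity and the other non-canonical branches, 12 rose and 8 fell, 42.9% and 28.6% beside 25.9%, with a median of 0.055. The atypical cadherins CELSR1 and CELSR3, core proteins of planar polarity, rose by 1.06 (SE 0.0472, adjusted p = 1.45e-09) and 1.20 (SE 0.0914, adjusted p = 1.78e-07). DAAM2 rose by 1.49 (SE 0.415, adjusted p = 0.00832) at under 1 CPM, and the kinase MAPK9 by 0.71. The largest falls were the transcription factor NFATC1 (-1.02), the kinase PRKCA (-0.63) and the calcineurin subunit PPP3CA (-0.55). NFATC1 was at -0.96 without HG-OE replicate 3.

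Of 38 textbook targets of beta-catenin and TCF outside the genes above, 7 rose and 19 fell, beside 25.9% of all genes in each direction, with a median of -0.17. Without HG-OE replicate 3, 9 of 39 rose and 22 fell, with the share of all genes in that fit not given. CCND2, a G1 cyclin, rose the most, from 20.7, 21.5 and 19.3 CPM to 99.4, 99.3 and 97.0 CPM (log2 fold change 2.26, SE 0.0523, adjusted p = 4.90e-12). Among called genes with a mean of at least 100 counts, the next were the protease MMP7 (0.87) and the phosphatase CDC25A (0.72). The largest falls were the GTPase RHOU (-1.31), the decoy receptor BAMBI (-1.12) and the vasoconstrictor peptide EDN1 (-0.93). The oncogene MYC fell by 0.62 and the cyclin CCND1 rose by 0.45 on the log2 scale. Of the feedback targets among the tested WNT genes themselves, RNF43 and NOTUM were lower, AXIN2, LEF1 and ZNRF3 were not called, and DKK1 was called lower without HG-OE replicate 3. Subtracting the neighbours' median brought many of these values closer to 0. Relative to the neighbours' median, RNF146 was at -0.17, USP34 at -0.094, SKP1 at 0.090, CXXC5 at 0.29, NLK at -0.23, BCL9 at 0.093, CBY1 at 0.010, NFATC1 at -0.48, PRKCA at -0.39, PPP3CA at -0.33, MAPK9 at 0.23, CELSR1 at 0.75, CELSR3 at 0.69, CDC25A at 0.20, TRABD2A at -0.22, WLS at -0.12 and CCND1 at 0.25. PTK7 (2.35), CCND2 (2.23), ADGRA2 (1.11), TLE2 (1.08) and RHOU (-1.22) were little altered. Other values moved further from 0. RECK, TLE3, TLE4 and EDN1 fell where their neighbours had positive medians, of 0.10, 0.081, 0.043 and 0.056. The target genes answer to many other pathways, so their counts are no measure of beta-catenin activity.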

How the data were processed

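Total RNA of HK-2 cells was taken as poly(A) libraries and sequenced as pairs. The authors aligned reads to GRCh38 with HISAT2, per the labels, and deposited raw counts of read pairs per gene and FPKM values. The counter and the annotation release are not given in the sources used here. The paper names ComBat_seq, and whether it touched these counts is not stated. No batch term was fitted. The authors call the 3 libraries of a group biological replicates, and the labels do not name separate cultures, so p-values measure the spread between libraries.

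The count model was edgeR 4.0.16 in R 4.3.3 (TMM, default low-count filter, which kept 17142 genes, quasi-likelihood test, Benjamini-Hochberg adjustment over all of them). Calls needed an adjusted p under 0.05 and, for 2-fold calls, that size of change too, as in the study. Alternatives used DESeq2 1.42.0 and limma 3.58.1. Steps were tested on simulated data. Positions are from GENCODE on GRCh38. Counting intervals cover counting error only. The genes, lists and tests were chosen with earlier results of these data known. Every tested gene was named, with values per library for those changed 2-fold, those with a mean of at least 1000 counts and the largest rise and fall of each role. Of the other lists, the 3 largest rises and falls among called genes with at least 100 counts and those called 2-fold were named. PORCN, WLS, MYC and CCND1 were chosen after their values were seen.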

Additional observations from a re-analysis of the deposited data

How the results depend on the processing

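The number of genes called 2-fold depended on the low-count filter and on the pseudocount. It was 997 over all genes, 617 with at least 10 counts required in every library, 1539 without a filter, and 144 and 138 with limma on log2(FPKM + 1), with and without a filter. Of the WNT pathway genes, 11 were called 2-fold, 6 with limma on log2(FPKM + 0.1) and 2 and 2 with limma on log2(FPKM + 1). A pseudocount shrinks the change of low genes. The number of WNT pathway genes called at any size ran from 19 to 25, and the shares of all genes in those fits are not given. Replicate numbers were shared by the groups, but same-numbered libraries did not deviate together (correlations -0.027, 0.030 and -0.00099). With the replicate number as a block, 24 of the 38 genes were called and 11 were 2-fold, and TCF7L2 was added (adjusted p = 0.033). Size factors of DESeq2 changed no call of a WNT pathway gene. DESeq2's test lost WNT10A, FZD2 and LRP5. All limma fits lost FZD5, FZD8 and LRP5, and the one without a filter also LGR4.

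The sign changed mostly for genes near 0. DKK1 was at -6.25e-04 with DESeq2, -0.054 and -0.044 with limma, -0.013 without a filter and -0.025 with the block. ZNRF3 was at -0.0094 and -0.0060 with limma and -0.0063 without a filter. Without HG-NC replicate 3 and HG-OE replicate 3, DKK1 was at -0.26, ZNRF3 at -0.013 and AXIN1 at 0.0075. With the neighbours' median subtracted, the called FZD5 and CTNNB1 turned to 0.097 and -0.064, and FZD7, ZNRF3, AXIN2 and DKK1, not called, turned to 0.31, -0.31, 0.13 and -0.11. With 1 library left out at a time, FZD3 ran from -0.25 to 0.15, ZNRF3 from -0.027 to 0.064, DKK1 from -0.28 to 0.16 and AXIN2 from -0.33 to 0.11, while AXIN1 reached -0.10. The cause of these changes was not tested. Depth limits the 15 untested genes and those near 1 CPM, whose intervals are wide.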
